A study of Mus musculus with 6 samples.

Results

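The class I and class II histone deacetylases, the genes Hdac1 to Hdac10, were followed in mouse embryonic fibroblasts that lack a working Ing1 locus. Members were all transcript probes of the array whose single annotated gene symbol is one of these 10 names. That gave 10 of 34967 transcript probes, for 9 of the 10 genes among 18069 genes with such a probe: Hdac10 had 2 probes, the other genes 1 each, and Hdac4 had no probe with its symbol and was not analysed here. Of the 10 probes, 9 (8 genes) were flagged as good spots by the scanner software throughout 1 genotype or both and were tested among 19575 probes, and the Hdac9 probe was not.

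The data came from 6 cultures of early-passage mouse embryonic fibroblasts, primary cells grown out of embryos, each on its own single-colour CodeLink whole-genome array. The 3 deficient cultures, labelled C4, C3 and B1, came from embryos whose Ing1 locus was disrupted by an inserted gene-trap cassette, and the 3 wild-type cultures, labelled H2, H3 and I2, from littermates without it. Each culture came from a separate embryo, and no treatment, strain or embryonic age is named in the labels. The values are normalized intensities, the background-subtracted signal of a spot in units of its array's median transcript probe, so levels of different probes are not set against each other.

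Histone deacetylases remove acetyl groups from lysines of histones and other proteins, and histone acetylation generally goes with open, transcribed chromatin. The class I enzymes Hdac1, Hdac2, Hdac3 and Hdac8 are mostly nuclear; Hdac1 and Hdac2 are close paralogs that form the catalytic core of the Sin3, NuRD and CoREST corepressor complexes, and Hdac3 serves the NCoR corepressor. The class IIa enzymes Hdac4, Hdac5, Hdac7 and Hdac9 shuttle between nucleus and cytoplasm and hold MEF2 transcription factors in check, and the class IIb enzymes Hdac6 and Hdac10 act largely in the cytoplasm. Ing1 is a PHD-finger protein of the Sin3 complex and is found there with Hdac1 and Hdac2.

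The arrays held 55.5% to 62.1% good spots, and 105 to 177 transcript spots per array were masked, none of them a deacetylase spot. Ing1 itself read 0.930 to 1.39 on the deficient arrays and 11.1 to 11.7 on the wild-type arrays, a 9.40-fold fall (limma adjusted p = 0.000287), which sets the genotypes apart as labelled. All 10 fibroblast markers were tested, with summed intensities of 1026 to 1097 in deficient and 878 to 1085 in wild-type cultures. Of them 2 rose, Lum (0.84 on the log2 scale) and Thy1 (0.89), 5 had an unadjusted p under 0.05, and the median difference was 0.35, against 6.02% of all tested genes higher, 1.61% lower and a median of 0.07. An unadjusted p under 0.05 was found for 26.2% of all tested probes. Macrophage markers, 7 tested of 12 listed, summed to 46.5, 154 and 76.0 in C4, C3 and B1 and to 49.3, 31.7 and 22.1 in H2, H3 and I2, with C3 highest. Of the 7, limma called 3 higher in deficient cells, C1qa, C1qb and Mrc1 (1.73 to 2.00, the wild-type Mrc1 values partly raised to 0.57, the floor for dim spots), all 7 were positive and the median was 1.496, the largest among the marker lists. Of the defining macrophage genes, Ptprc, Adgre1 and Itgam had probes that fell short of the flag rule and were not tested. Skeletal muscle markers, 5 tested and 0 called by limma (1 at an unadjusted p under 0.05), summed to 52.4, 22.2 and 34.0 in the deficient and 26.6, 20.6 and 22.5 in the wild-type cultures, with C4 highest. The 3 neural markers tested, of which 1 rose, summed to 10.9 to 11.1 and 8.76 to 9.52, mostly from Nes. The riser was Tubb3 (0.81), whose wild-type values were all raised to the floor, while Nes gave 0.29 and Map2 -0.35 without passing. The 2 endothelial markers tested summed to 1.94 to 2.57 in deficient and 2.28 to 2.43 in wild-type cultures. Over the tested probes without a masked spot, wild-type array H3 correlated with the deficient arrays at r of 0.961 to 0.972, against 0.960 and 0.975 with the other wild-type arrays.

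Hdac1 was the only deacetylase of the list that passed the test over all probes, and its paralog Hdac2 read nearly the same in both genotypes. Hdac3 leaned the same way as Hdac1 without passing, Hdac10 gave opposite signs with its 2 probes, and the class II genes Hdac5, Hdac6 and Hdac7 differed by less than the spread between cultures. In numbers, 1 of the 9 tested probes rose and 0 fell at an adjusted p under 0.05 in limma (Benjamini-Hochberg over all 19575 probes), while 6.57% of all tested probes passed, 4.94% higher and 1.63% lower in deficient cells. At an unadjusted p under 0.05 there were 2 higher and 1 lower, against 17.0% and 9.21% of all probes (26.2% in either direction). The genotypes did not overlap at 2 probes that were higher and 1 that was lower in deficient cells, against 20.1% and 11.3% of all tested probes (31.4% in either direction). The median log2 difference over the 9 probes was 0.00076, beside 0.02 over all probes tested. Counts this close to the background shares are no result about the family, and what follows concerns single genes.

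**Figure D1:**
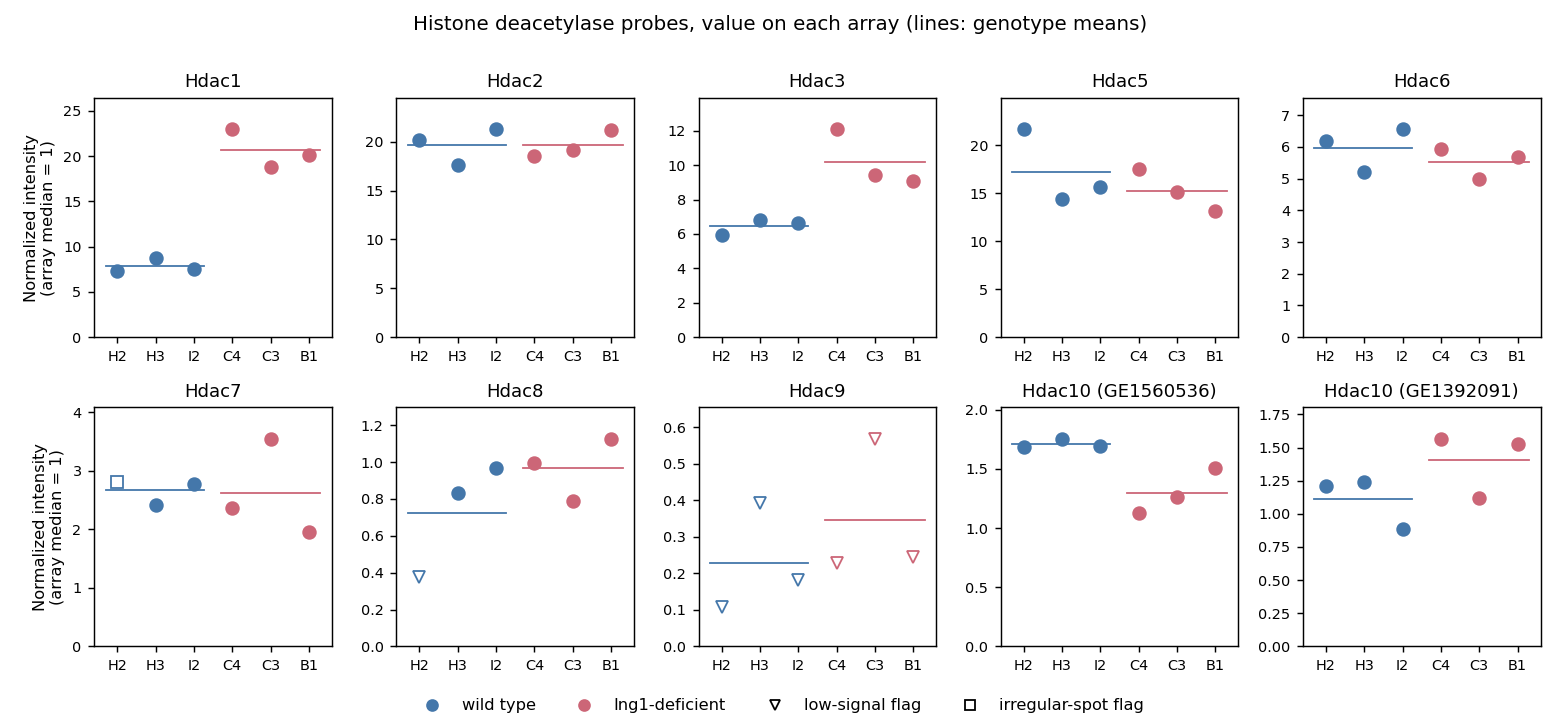
Normalized intensity (array median = 1, linear axis from 0) of each of the 10 deacetylase probes on the 3 wild-type arrays (blue) and the 3 Ing1-deficient arrays (red), with lines at the genotype means and open symbols for spots without a good flag. Hdac1 lies at 7.26 to 8.76 in wild-type and 18.8 to 22.9 in deficient cultures, whereas Hdac2 overlaps.

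Hdac1, the founding class I deacetylase of the Sin3 and NuRD complexes, was read by probe GE34558 with a good flag on all 6 arrays. Deficient cultures C4, C3 and B1 had normalized intensities of 22.9, 18.8 and 20.1, and wild-type cultures H2, H3 and I2 had 7.26, 8.76 and 7.48. The lowest deficient culture thus stood 1.10 log2 units above the highest wild-type culture, and the genotypes did not overlap. Group means were 20.6 ± 2.12 in deficient and 7.83 ± 0.811 in wild-type cells (SD, n = 3 each). The log2 difference was 1.40 ± 0.16 (SE), a 2.63-fold rise with a 95% interval of 2.05-fold to 3.38-fold (limma adjusted p = 0.00937). The background-subtracted signal before scaling also did not overlap, at 401 to 432 scanner units in deficient and 141 to 190 units in wild-type cultures, so the rise was present before the arrays were brought to a common median. The spread within a genotype was alike in both, with SDs of 0.15 and 0.15 on the log2 scale.

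The size of the Hdac1 difference moved little between settings, but its call was more fragile. Over 18 alternatives the log2 difference ran from 1.10, under another background correction, to 1.48, without array H3, and it was positive in 18 of 18. Alternatives that changed only the flag filter, the test or the floor left it at 1.40 and could not move it. It passed the threshold in 13 of 18, among them the fits without C4, C3 or H3. Those 13 also include an unadjusted p, array weights and the leading label letter as a random block. Array weights and the letter block are no guide, for reasons given at the end. The limma adjusted p was 0.0701 without B1, 0.0533 without H2 and 0.0841 without I2, with log2 differences of 1.41, 1.34 and 1.37, and each of those fits has 1 array fewer. Without the wild-type array H3, which lay nearest to the deficient arrays, the adjusted p was 0.0037.

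Hdac2, the paralog that can stand in for Hdac1 in the same complexes, was read by probe GE34559 with a good flag on all 6 arrays. It read 18.5, 19.2 and 21.3 in deficient and 20.1, 17.6 and 21.3 in wild-type cultures, listed in the same order of labels as for Hdac1, here and for each gene that follows. The genotypes overlapped throughout, with means of 19.7 ± 1.41 and 19.7 ± 1.87 (SD, n = 3 each). The log2 difference was 0.00076 ± 0.15 (SE), with a 95% interval of -0.35 to 0.35 (limma adjusted p = 0.998). That interval allows a change of up to 1.27-fold higher, and it lies below the whole interval of Hdac1.

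The paralogs were then compared within each array, where any scaling of the array cancels. The log2 value of the Hdac1 probe minus that of the Hdac2 probe was 0.31, -0.03 and -0.08 on the deficient arrays and -1.47, -1.01 and -1.51 on the wild-type arrays. The sign and size of such a value depend on the 2 probes, so only its change between genotypes can be read. All 3 deficient arrays lay above all 3 wild-type arrays, with means of 0.07 ± 0.21 and -1.33 ± 0.28 (SD, n = 3 each). The difference between genotypes was 1.40 ± 0.20 (SE), so that Hdac1 shifted by 2.63-fold relative to Hdac2. The exact two-sided permutation test gave p = 0.1, the smallest value that 3 arrays against 3 can give, so this comparison cannot pass 0.05 by that test. Over 11 alternatives the difference ran from 1.17 to 1.56.

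**Figure D2:**
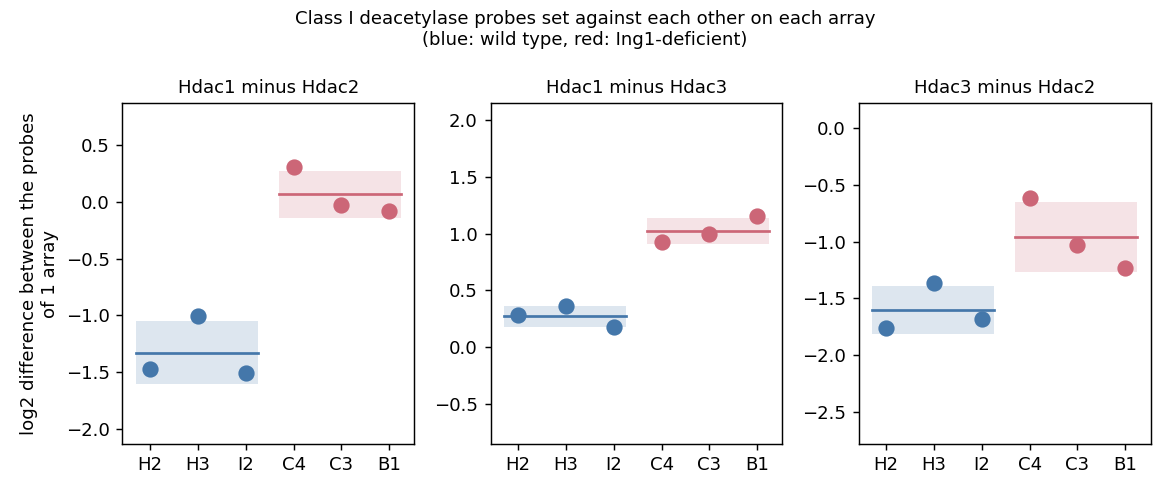
Log2 difference between pairs of class I deacetylase probes on each array, wild type in blue and Ing1-deficient in red, with lines at the means and bands of 1 SD. Hdac1 against Hdac2 moved from a mean of -1.33 to 0.07, and Hdac3 against Hdac2 from -1.60 to -0.96.

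Hdac3, the catalytic subunit of the NCoR corepressor complex, was also higher on every deficient array, but it missed the threshold. Probe GE36466 read 12.1, 9.41 and 9.06 in deficient and 5.95, 6.83 and 6.63 in wild-type cultures, with 6 good flags. The genotypes did not overlap, and the means were 10.2 ± 1.65 and 6.47 ± 0.462 (SD, n = 3 each). The log2 difference was 0.64 ± 0.17 (SE), or 1.56-fold with an upper 95% bound of 2.03-fold, at a limma adjusted p of 0.0545 and an unadjusted p of 0.00389. It was positive in 18 of 18 alternatives, from 0.43 under another background correction to 0.73 with the leading label letter as a random block, and passed in 6. Alternatives that changed only the flag filter, the test or the floor left the difference at 0.64 and could not move it. The limma adjusted p was 0.0459 with good flags on all 6 arrays, 0.0379 with a variance trend and 0.0477 without H3. The other passes came from an unadjusted p, from array weights and from the leading label letter as a random block. Array weights and the letter block are no guide, for reasons given at the end. In a pair of further within-array comparisons, chosen after their values were seen, Hdac3 shifted against Hdac2 by 0.64 ± 0.22 and Hdac1 against Hdac3 by 0.75 ± 0.09 (SE, log2). On all 6 arrays these values kept the genotypes apart, and each exact permutation test gave p = 0.1, also after adjustment over the 3 pairs.

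Hdac8, an X-linked class I enzyme that deacetylates the cohesin subunit SMC3, lay near the detection limit. It read 0.995, 0.787 and 1.13 in deficient and 0.379, 0.830 and 0.969 in wild-type cultures, the H2 spot with a low-signal flag. The genotypes overlapped even where the spots were flagged good. The log2 difference was 0.32 ± 0.23 (SE, limma adjusted p = 0.417), with the H2 value raised to the floor of 0.57 that was set for dim spots. It was 0.51 with a floor of 0.01, 0.097 without H2, 0.48 without I2 and 0.20 without B1, so its size is not settled.

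For orientation on the class I genes, the start region of Hdac2 is shown, the paralog whose probe gave the smallest difference. The RefSeq promoter table of GRCm38.p6 held 11 start regions for 7 of the genes, Hdac2, Hdac4, Hdac5, Hdac6, Hdac7, Hdac8 and Hdac9. It held none for Hdac1, Hdac3 or Hdac10, so theirs could not be shown. The 250 bases before the Hdac2 start, chr10:36974294-36974543 on the plus strand, are written 5′ to 3′ with a GC box in capitals.
Hdac2: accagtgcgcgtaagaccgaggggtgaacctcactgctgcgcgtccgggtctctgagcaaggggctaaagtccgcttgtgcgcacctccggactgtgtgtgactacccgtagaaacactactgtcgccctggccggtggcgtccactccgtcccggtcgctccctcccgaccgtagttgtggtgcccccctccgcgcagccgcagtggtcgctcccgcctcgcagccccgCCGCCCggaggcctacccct
The GC box was searched as GGGCGG on both strands, and the match is on the opposite strand. The region held 1 GC box, 27 CpG dinucleotides and no CCAAT box (CCAAT, both strands) or TATA box (TATAAA, both strands). Over 32841 regions of the same length in the table, 32.7% held a GC box, 33.9% a CCAAT box and 12.4% a TATA box, and the median CpG count was 6. Among the members, 5 of 11 regions held a GC box and 4 a CCAAT box. Hdac6 held 4 GC boxes in its 1 region, whereas both Hdac9 regions held 0 and had 2 and 0 CpG dinucleotides. These matches describe letters in a window, and no array value bears on them.

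Of the class IIa enzymes, Hdac5 and Hdac7 were tested, and neither showed a difference beyond its spread. Hdac5, a repressor of MEF2 targets in muscle, read 17.5, 15.1 and 13.2 in deficient and 21.7, 14.4 and 15.7 in wild-type cultures. Wild-type culture H2 was the highest of the 6, and the other wild-type cultures lay among the deficient ones. The log2 difference was -0.16 ± 0.20 (SE) with a 95% interval of -0.61 to 0.29 (limma adjusted p = 0.653), and it was 0.01 without H2.

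Hdac7, known from endothelial cells and thymocytes, read 2.37, 3.55 and 1.96 in deficient and 2.81, 2.42 and 2.78 in wild-type cultures. The H2 spot had an irregular shape flag, and the 3 deficient cultures spread on both sides of the wild-type ones. The log2 difference was -0.07 ± 0.22 (SE, limma adjusted p = 0.886), and the deficient SD of 0.44 on the log2 scale was the widest among the tested deacetylase probes in that genotype. Without B1 the difference was 0.12.

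Hdac9, which in its short form lacks the catalytic domain, carried a low-signal flag on all 6 arrays. Its spots read 0.228, 0.569 and 0.246 in C4, C3 and B1 and 0.108, 0.394 and 0.183 in H2, H3 and I2. The 95th percentile of the negative control spots was 0.300 to 0.397 on these arrays. The signal was not well above background, and no fold is given.

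Of the class IIb enzymes, Hdac6, the main tubulin deacetylase, read 5.93, 5.0 and 5.69 in deficient and 6.18, 5.2 and 6.55 in wild-type cultures. The genotypes overlapped, and the log2 difference was -0.11 ± 0.16 (SE, limma adjusted p = 0.722) with a 95% interval of -0.47 to 0.26. Its sign was negative in 18 of 18 alternatives, from -0.23 to -0.03, and it passed in 0 of them. Those that changed only the flag filter, the test or the floor could not move the difference.

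Hdac10, a polyamine deacetylase, had 2 probes that disagreed. Probe GE1560536 read 1.13, 1.26 and 1.51 in deficient and 1.68, 1.76 and 1.69 in wild-type cultures, so that every deficient culture lay below every wild-type one. Probe GE1392091 read 1.57, 1.12 and 1.53 on the same deficient arrays and 1.21, 1.24 and 0.883 on the wild-type arrays, which overlapped. The log2 differences were -0.41 ± 0.16 (limma adjusted p = 0.151) and 0.34 ± 0.20 (adjusted p = 0.321), each with its SE. Neither passed, and the spots of both probes were flagged good on all 6 arrays. What part of the transcript each probe reads is not given in the sources used here. No direction can be given for Hdac10.

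**Figure D3:**
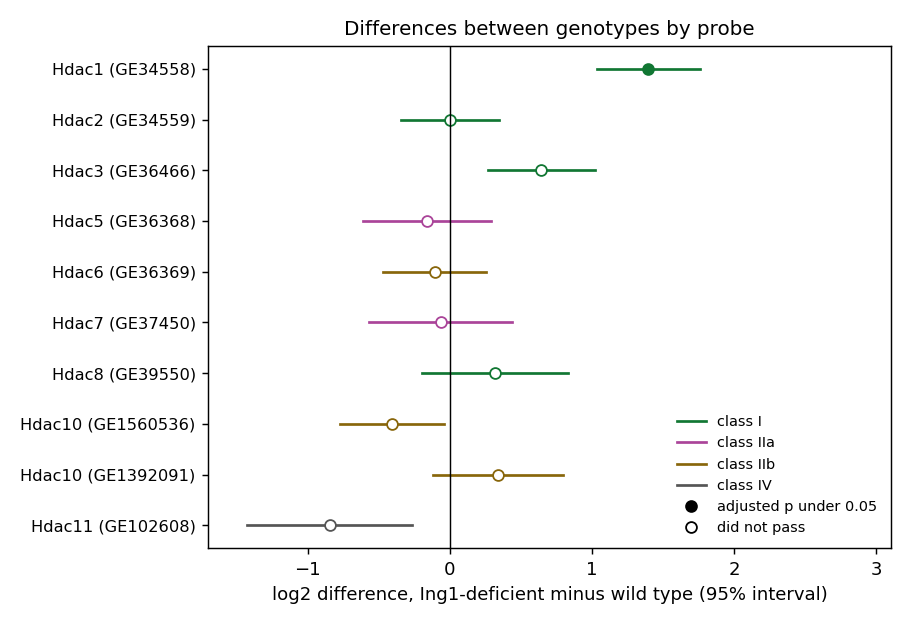
Log2 difference between Ing1-deficient and wild-type cultures for each tested deacetylase probe, with the 95% interval from limma, coloured by class. The Hdac1 interval, 1.04 to 1.76, clears that of Hdac2, -0.35 to 0.35, and of every class II probe.

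As to the order of the differences, Hdac1 stood first at 1.40, then Hdac3 at 0.64, the Hdac10 probe GE1392091 at 0.34 and Hdac8 at 0.32. Hdac2, Hdac7, Hdac6 and Hdac5 followed between 0.00076 and -0.16 with overlapping intervals, and the Hdac10 probe GE1560536 came last at -0.41. The intervals of Hdac1 and Hdac3 (0.27 to 1.02) do not overlap, and that of Hdac3 overlaps those of Hdac2 and Hdac8. Of the 9 intervals, 7 lay wholly within a 2-fold change either way, among them those of the disagreeing Hdac10 probes and that of Hdac8, which rests on a value raised to the floor.

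Among 11858 other genes measured on all 6 arrays, the 5 whose log2 values followed Hdac1 most closely were Rapgef5, Hic1, Acsl5, Pspc1 and Garem1. Their Pearson correlations with the Hdac1 probe were 0.997 to 0.9998 over 6 arrays of 2 genotypes, as a description with no test. Hic1, a transcriptional repressor, read 7.33, 5.96 and 6.44 in C4, C3 and B1 and 1.67, 2.298 and 1.805 in H2, H3 and I2. It repeats the order of Hdac1 over the arrays, with C4 highest and H2 lowest. Pspc1, a paraspeckle protein, ran from 1.83 in H2 to 4.85 in C4, and Acsl5, an acyl-CoA synthetase, from 4.01 to 6.83 on the same arrays. Rapgef5 was raised to the floor in H2 and I2, so its values there are bounds and its place at the top rests on them. In all, 489 genes (4.12%) had a correlation over 0.95, and Hdac3, at 0.96, was among them, while Hdac2 stood at -0.11.

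Genes near Hdac1 on its chromosome, an addition made after the deacetylase values were seen, did not pass. They were taken by their order in the RefSeq table among protein-coding genes with a single-symbol probe. A gene without such a probe was skipped, so those taken need not lie directly beside Hdac1. Of the 3 genes taken on each side, 5 in all were tested. Marcksl1, Tssk3 and Bsdc1 on one side gave log2 differences of 0.14, 0.10 and -0.0029, and Eif3i and Tmem234 on the other gave -0.12 and 0.27, with adjusted p-values of 0.38 to 0.995 in limma. Of the nearest genes taken, Marcksl1 had a wide SE of 0.60, so its value says little, and Fam167b on the other side was not tested. The RefSeq table lists a pseudogene name, Hdac1-ps, among the synonyms of Hdac1, and whether the probe also reads such a copy was not tested.

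The partners of Hdac1 and Hdac2 showed smaller differences than Hdac1. Of 13 tested Sin3 complex genes, Brms1, a complex subunit, rose (0.59 ± 0.14, adjusted p = 0.0453), 0 fell and 12 did not pass. The scaffold genes Sin3a and Sin3b gave 0.10 and 0.54, with adjusted p-values of 0.757 and 0.211, and the list median was 0.30. With single arrays dropped, Brms1 passed only without H3. In limma 0 of 12 tested NuRD genes passed (4 at an unadjusted p under 0.05), and the median was 0.19. Mbd3, the core methyl-CpG-binding-domain protein of NuRD, read 8.56 to 13.3 in deficient and 5.32 to 6.98 in wild-type cultures (0.74 ± 0.20, adjusted p = 0.0617). Mta1 pointed the other way at -0.58 ± 0.20 (adjusted p = 0.105). In limma 0 of 8 tested CoREST genes passed (2 at an unadjusted p under 0.05), with a median of 0.01, the lowest p-values being those of Rcor3 (0.40) and Hmg20b (-0.39). The background for these lists is 6.02% of genes higher and 1.61% lower, with a median of 0.07, over 11893 tested genes at 1 probe a gene. For the unadjusted counts it is 26.2% of all tested probes.

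Around Hdac3, 4 of the 6 NCoR complex genes listed were tested and 0 passed in limma, and 1 had an unadjusted p under 0.05, Gps2, an integral subunit (0.43 ± 0.15, adjusted p = 0.113). Cir1 gave -0.52 (adjusted p = 0.204). For comparison, 6.02% of all tested genes were higher and 1.61% lower, and 26.2% of all tested probes had an unadjusted p under 0.05. A list of Dnttip1, Mideas, Trerf1 and the MIER genes, further Hdac1 and Hdac2 partners, had 5 tested genes, 0 passing in limma and 2 at an unadjusted p under 0.05. Mideas gave 0.72 ± 0.22 (adjusted p = 0.0784) and Trerf1 -0.38 ± 0.16 (adjusted p = 0.164).

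Partners of the class II enzymes are read against the same shares, 6.02% of genes higher and 1.61% lower, and 26.2% of probes at an unadjusted p under 0.05. Of 14 tested class IIa partners, the MEF2 factors, the Ywha adaptor proteins that hold phosphorylated class IIa enzymes in the cytoplasm, and their kinases, 0 passed in limma and 4 had an unadjusted p under 0.05. Ywhaz read 52.3 to 56.2 in deficient and 21.4 to 37.9 in wild-type cultures (0.85 ± 0.22, adjusted p = 0.0523), and Ywhag gave 0.61 (adjusted p = 0.0687). The kinases Camk4 and Prkd1 pointed the other way, at -0.54 (limma adjusted p = 0.141) and -0.48 (limma adjusted p = 0.178). Mef2a, Mef2c and Mef2d gave -0.06, -0.02 and -0.49. Of 6 tested Hdac6 substrates and partners, Vcp, a segregase that works with Hdac6 in ubiquitin handling, rose (0.63 ± 0.15, adjusted p = 0.0438), a call that, with single arrays dropped, held only without H3. The Hdac6 substrate Cttn gave 0.22 (adjusted p = 0.401) with its brighter probe and 3.43 (adjusted p = 0.000203) with another, so no single value holds for it and the count of 1 depends on the probe taken.

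Among the other protein deacetylases, Sirt7, a nucleolar sirtuin, rose. It read 9.37, 7.05 and 6.84 in C4, C3 and B1 and 4.33, 4.65 and 4.55 in H2, H3 and I2, a log2 difference of 0.77 ± 0.17 (adjusted p = 0.0363). The other 7 of 8 tested genes of that list did not pass, and with single arrays dropped Sirt7 passed only without H3 (adjusted p = 0.0331). Sirt6 gave 0.52 (adjusted p = 0.0782), with 4.50 to 5.71 in deficient and 3.39 to 3.47 in wild-type cultures. Hdac11, the class IV enzyme, read 1.05 to 1.35 in deficient and 1.37 to 2.77 in wild-type cultures, a log2 difference of -0.85 ± 0.26 (adjusted p = 0.0809) whose genotypes were separated by 0.02 log2 units. The opposing acetyltransferases gave 0 calls among 9 tested genes in limma, with 3 at an unadjusted p under 0.05, and both lists stand against 6.02% of genes higher and 1.61% lower and 26.2% of probes at an unadjusted p under 0.05. Kat2a read 2.67 to 3.54 in deficient and 1.94 to 2.02 in wild-type cultures (0.62 ± 0.16, adjusted p = 0.0527), and Kat6a gave 0.88 (adjusted p = 0.0778).

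**Figure D4:**
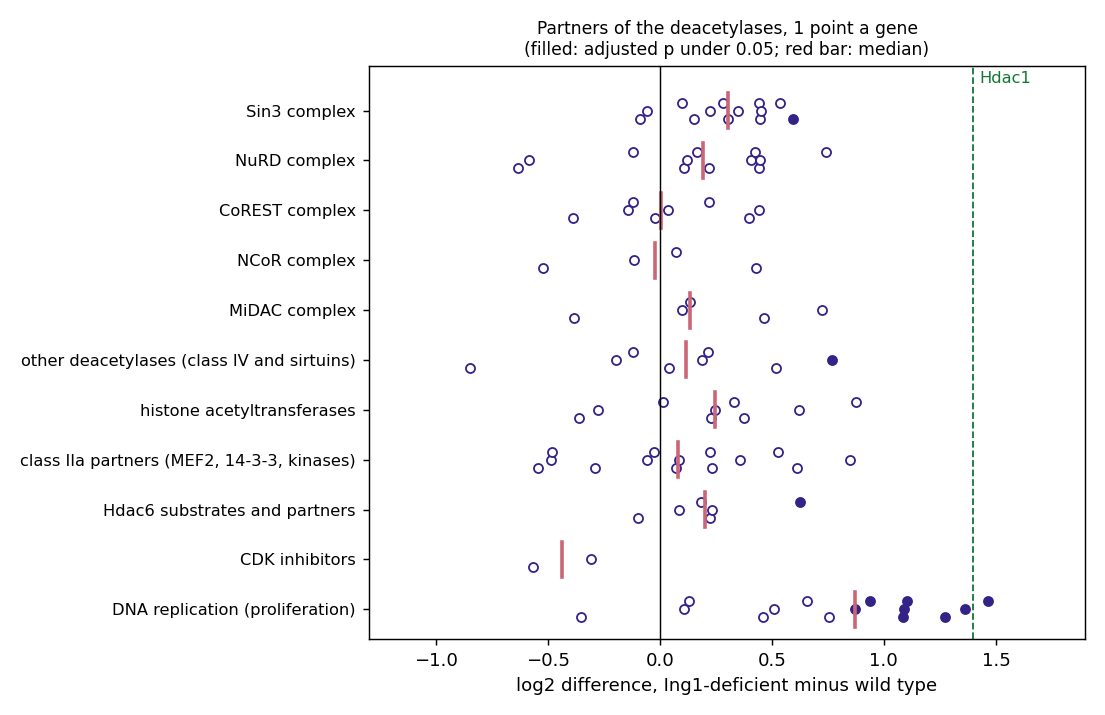
Log2 difference between Ing1-deficient and wild-type cultures for each tested gene of the partner lists, filled where the limma adjusted p was under 0.05, with the list median as a bar and the Hdac1 difference of 1.40 as a dashed line. In the corepressor lists the points lie below Hdac1, with medians of 0.30 for Sin3 and 0.19 for NuRD, whereas the DNA replication list has a median of 0.87.

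Genes of DNA replication were higher on the same arrays, and they are given here because Hdac1 is known to be higher in dividing cells. Of 15 tested genes 8 rose and 0 fell, against 6.02% and 1.61% of all tested genes, with a median of 0.87 against 0.07, in a list close to one already known to move in these data and thus no independent support. The 15 intensities summed to 174 in C4, 111 in C3 and 124 in B1, and to 84.8 in H2, 92.8 in H3 and 82.7 in I2. Hdac1 was highest in C4 as well, then in B1 and C3, and without C4 its log2 difference was 1.32 (adjusted p = 0.0471). The count of 8 was 0 without B1, C4, H2 or I2, 3 without C3 and 9 without H3. Cdkn1a, a cyclin-dependent kinase inhibitor known to be repressed by Hdac1, read 42.5 to 58.4 in deficient and 54.1 to 88.9 in wild-type cultures, a log2 difference of -0.57 ± 0.22 (adjusted p = 0.146), and Cdkn1c gave -0.31. Limma called 0 of these 2 inhibitors, with 1 at an unadjusted p under 0.05, against 26.2% of all tested probes. Macrophage markers also moved with genotype, with 3 of 7 higher and a median of 1.496; they stood highest in C3, where Hdac1 was the lowest of the deficient cultures, and skeletal muscle markers in C4, where it was the highest. The part of proliferation or of other cells in the Hdac1 value was not tested, and in whole cultures more cells that express a gene and more RNA per cell cannot be told apart.

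**Figure D5:**
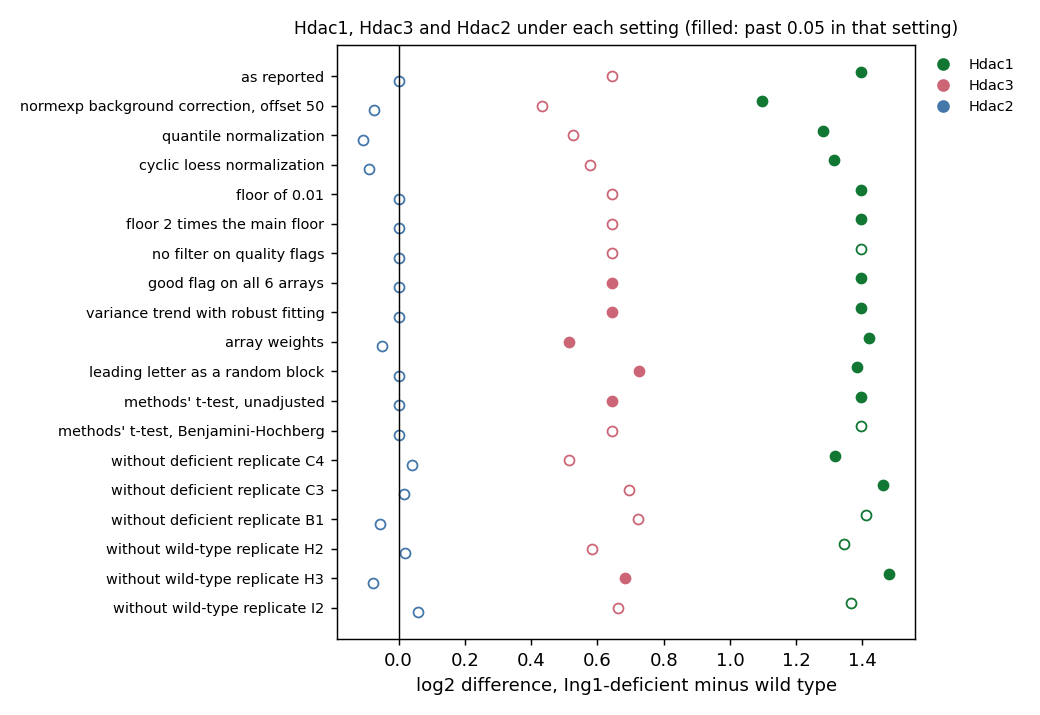
Log2 difference of Hdac1 (green), Hdac3 (red) and Hdac2 (blue) between genotypes as reported and under 18 other settings, filled where it passed 0.05 in that setting. Hdac1 stays between 1.10 and 1.48, Hdac3 between 0.43 and 0.73, and Hdac2 between -0.11 and 0.06.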

How the data were processed

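Total RNA was labelled with biotin and hybridised to 1-colour CodeLink arrays, per the labels. Spot quantification used CodeLink Expression Analysis 4.1.0.29054, per the file headers. As the deposited columns show, the authors' normalized intensity takes the local median background from the mean of each spot and scales the array to a transcript-probe median of 1, on a linear scale with masked spots coded as missing; 217362 of 217362 deposited values of the series table equal the scanner tables within 1e-09, masked codes included. Other deposited columns, unscaled scanner intensities with decimal commas, served the background alternative. Genome build is not given in the sources used here. Here values under 0.57 (the median over arrays of the 1st percentile among good-flag spots) were raised to it, log2 was taken, and probes flagged good throughout 1 genotype or both were tested with limma 3.58.1 in R 4.3.3 (lmFit, eBayes, two-sided, Benjamini-Hochberg, threshold 0.05). The scripts were tested on simulated data. Symbols came from the platform annotation, updated by gene ID to RefSeq GRCm38.p6 (21615 probes with 1 symbol, 681 with several). In lists a gene stands by its brightest tested probe. Named are all deacetylase probes, list members past the threshold or else the lowest p-values, and the 5 genes most like Hdac1; other names were chosen after their values were seen. Members and lists were chosen with earlier results of these data known. The number of arrays limits the precision.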

Additional observations from a re-analysis of the deposited data

How the results depend on the processing

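The Hdac1 difference and its difference from Hdac2 kept their sign in every alternative run. A change of floor, flag filter or test alone could not move either value. Hdac1 lost its call without a filter on flags (1.40, adjusted p = 0.0761) and in the methods' t-test once adjusted (1.40, adjusted p = 0.0925); with an array left out it ran from 1.32 to 1.48. The count of deacetylase probes past the threshold, 1 as reported, was 0 in those 2 settings, 2 with good flags on all 6 arrays or a variance trend, 3 with array weights or the unadjusted methods' t-test, 4 with the leading letter of the culture labels as a random block, and 0 to 2 with an array left out. Over all probes 1286 passed as reported, and 576 with normexp, 738 with quantile and 751 with loess processing, 275 and 191 with floors of 0.01 and 1.14, 20 without the filter, 8160 with array weights, 12901 with the letter block, and 3925 and 7 in the methods' t-test without and with adjustment; with an array left out it was 5 to 2725. The letter block took a correlation of -0.886 within letters, and the array weights did not reach convergence, so neither count is a guide. Quantile normalization put 448 probes higher and 290 lower, against 967 and 319 as reported. Hdac2, never called, turned to -0.073 with normexp, -0.106 with quantile, -0.091 with loess processing and -0.050 with array weights, and with an array left out ran from -0.077 (H3) to 0.059 (I2), negative also without B1 (-0.057). Hdac7 turned to 0.12 with the letter block and ran from -0.31 (without C3) to 0.12 (without B1), and Hdac5 from -0.28 (without H3) to 0.014 (without H2). At the higher floor Hdac8 had no value left. No paired analysis was possible because the culture labels name no pairs and the genotypes share 1 replicate number only. No slide block could be fitted since each array is a slide of its own. The leading letters C and B occur only in deficient and H and I only in wild-type cultures. Their meaning is not stated, and whatever they mark cannot be told apart from genotype. Dim spots limit Hdac8, Hdac9 and Hdac10.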
